A study of Prunus persica with 12 samples.

Results

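A set of 300 genes lost transcript at each of 2 successive ripening steps in the flesh of 'Hu Jing Mi Lu' peach (Prunus persica), out of 27864 gene identifiers in the files. Expression was measured by RNA-seq as RPKM, the reads of a gene scaled to its length and to the reads of its library. A gene entered the set when its mean was at least 10 RPKM at stage 1 and at least 3 RPKM at stage 2, and when log2(mean RPKM + 1) dropped by 1 or more at both steps. The set was thus chosen on the measured values of the 'Hu Jing Mi Lu' libraries, and those values are described here without a test.

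The 12 libraries came from fruit mesocarp, the edible flesh, with 2 libraries in each of 6 groups. 'Zhong Hua Shou Tao' (ZH2, slight aroma, hard melting flesh, Brix 18), 'Jin Xiu Huang Tao' (JX2, strong aroma, soft melting flesh, Brix 12) and 'Yu Lu' (YL2, strong aroma, soft melting flesh, Brix 14.9) were sampled at stage number 2. 'Hu Jing Mi Lu', all soft melting, was sampled as HJ1 (slight aroma, Brix not given), HJ2 (strong aroma, Brix 12.1) and HJ3 (strong aroma, Brix 12.5). Brix measures soluble solids, and no treatment, genotype or fruit age is given in the labels. Stage numbers come from the sample titles, and whether stage 2 was equally ripe in the 4 cultivars is not stated. The labels do not say whether both libraries of a group had their own fruit or tree as source. The p-values given here therefore reflect variation among the sequenced libraries alone, which may be technical.

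Peach is a climacteric fruit: ripening is accompanied by a burst of ethylene, dissolution of the cell walls in melting flesh, loss of chlorophyll and build-up of aroma compounds. Programmes of the growing fruit are wound down in the same period, so that many transcripts of firm, unripe flesh are lost by the time the fruit is soft. Cultivars differ in how far and how fast these changes run. The deposited tables carry no gene names, and a reference table of 26412 genes (RefSeq, assembly Prunus_persica_NCBIv2) matched 0 of the identifiers. Members are therefore given by identifier, without function, position or sequence, and the labelled tissue was not checked against marker genes.

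Depth ran from 1205507 reads in HJ1 replicate 2 to 3222252 reads in HJ2 replicate 2, worked back from the steps between the values. For a gene of 960 bp, the median length of the members, 3 reads were worth 2.59 RPKM in the shallowest library and 0.970 RPKM in the deepest. Correlations across genes of log2(RPKM + 1) were between 0.961 and 0.978 for the pairs of libraries of a group. The flesh was sampled in bulk, so fewer cells of a type and less RNA per cell cannot be told apart.

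**Figure D1:**
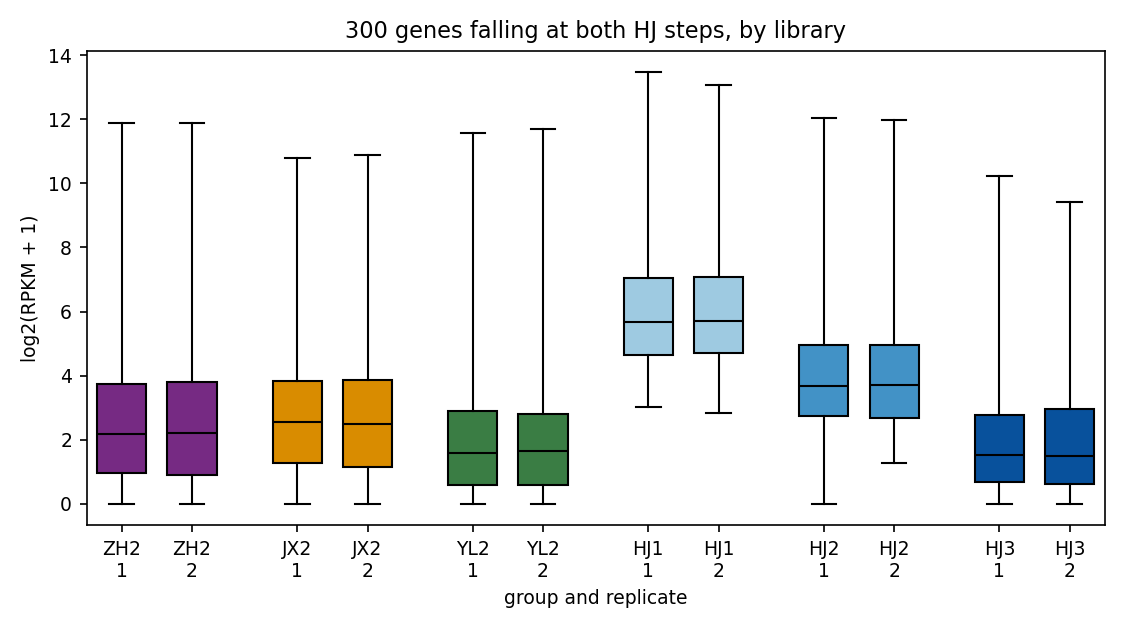
Levels of the 300 genes in each of the 12 libraries, as log2(RPKM + 1). Boxes span the quartiles, lines mark the medians and whiskers reach the lowest and highest gene; both libraries of a group lie close together, and the YL2 boxes sit at the height of the HJ3 boxes.

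Within 'Hu Jing Mi Lu' the median over the 300 members was 52.9 RPKM in HJ1, 12.2 RPKM in HJ2 and 1.94 RPKM in HJ3. All genes tested had medians of 9.89, 7.71 and 6.77 RPKM at the same stages. The plot of levels by library shows that both replicates gave the same picture: member medians were 49.9 and 51.3 RPKM in HJ1, 11.9 and 12.1 RPKM in HJ2, and 1.88 and 1.80 RPKM in HJ3. The drop on the log2(RPKM + 1) scale had a median of -1.71 at the early step (HJ2 minus HJ1) and -1.86 at the late step (HJ3 minus HJ2). Over all genes tested these medians were -0.22 and -0.20. The early step was the larger in 144 members and the late step in 156, so the set was not dominated by either.

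The rule fixes these directions, so nothing is read from the following counts. A drop of 1 or more on the log2 scale was found at the early step for 17.5% of the 15217 genes tested, at the late step for 12.9% and at both for 2.97%. Of the 7303 genes with enough transcript in HJ1 and HJ2 to qualify, 4.11% met the rule. The libraries did not overlap at either step for 298 members, as for 15.9% of all genes tested. The bounds cut through a continuum. The member nearest the early bound had 32.7 RPKM in HJ2, against 66.4 RPKM in HJ1, and the nearest gene left out had 25.2 RPKM in HJ2, against 51.3 RPKM in HJ1. The member nearest the late bound had 7.36 RPKM in HJ3, against 15.8 RPKM in HJ2, and the nearest gene left out had 36.2 RPKM in HJ3, against 73.0 RPKM in HJ2. Within 0.1 of the early bound lay 23 members and 30 genes left out, and within 0.1 of the late bound 15 members and 28 genes left out. The lowest member had 10.1 RPKM in HJ1, and the nearest gene left out had 9.97 RPKM; for HJ2 these values were 3.02 and 2.99 RPKM.

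Summed over all members, the share of a library's RPKM total was 1.53% ± 0.0393 in ZH2, 1.38% ± 0.0431 in JX2 and 1.01% ± 0.0294 in YL2 (SD, n = 2 each). In 'Hu Jing Mi Lu' it was 9.23% ± 0.334 at HJ1. It was 2.81% ± 0.0208 at HJ2 and 0.671% ± 0.0691 at HJ3 (SD, n = 2 each). The share in every cultivar thus lay between those of HJ2 and HJ3. A single gene carried much of it: ppa014212m held 32.9% of the members' sum in ZH2, 18.0% in JX2 and 43.0% in YL2. Without that gene the shares were 1.03% ± 0.0434 in ZH2, 1.13% ± 0.0352 in JX2 and 0.575% ± 0.000172 in YL2, against 7.97% ± 0.111 at HJ1, 2.26% ± 0.00528 at HJ2 and 0.576% ± 0.0574 at HJ3 (SD, n = 2 each). The shares of YL2 and HJ3 then differed by less than the spread between the HJ3 libraries.

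The most abundant member, ppa014212m, stood at 3811 and 3747 RPKM in ZH2, 1789 and 1883 RPKM in JX2, and 3014 and 3294 RPKM in YL2. Its 'Hu Jing Mi Lu' values were 11312 and 8673 RPKM in HJ1, 4217 and 4037 RPKM in HJ2, and 753 and 629 RPKM in HJ3. All cultivar libraries lay below both HJ2 libraries and above both HJ3 libraries. The next member, ppa013857m, had 1226 and 1202 RPKM in ZH2, 1442 and 1596 RPKM in JX2, and 395 and 319 RPKM in YL2. In 'Hu Jing Mi Lu' it had 6128 and 5646 RPKM in HJ1, 3018 and 2753 RPKM in HJ2, and 1189 and 688 RPKM in HJ3. Here YL2 lay below every HJ3 library, while ZH2 and JX2 lay above them. Among the 10 members highest in HJ1, 8 were lower in YL2 than in HJ3, against 4 in ZH2 and 0 in JX2.

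The deepest drops left few reads in HJ3. The gene ppa006620m had 2.37 and 2.28 RPKM in ZH2, 12.8 and 12.1 RPKM in JX2, and 3.22 and 3.11 RPKM in YL2. In 'Hu Jing Mi Lu' it had 2009 and 2072 RPKM in HJ1, 16.2 and 14.95 RPKM in HJ2, and 4.002 and 2.69 RPKM in HJ3. HJ1 thus stood apart, and every other library lay at or below its HJ2 values. The gene ppa010081m had 657 and 540.3 RPKM in HJ1, 13.5 and 17.9 RPKM in HJ2, and a single read in each HJ3 library. Its depth-corrected ratio of HJ1 to HJ3 reads was 854 (95% counting interval 236 to 7054). It differed more widely among the other cultivars than ppa006620m, which was higher in JX2 than in ZH2 and YL2, as given below for ZH2. Over the whole set, the fall from HJ1 to HJ3 was at least 3 on the log2 scale for 228 members and at least 5 for 70. Both HJ3 libraries held 0 reads for 38 members, which does not show that they were absent at this depth.

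**Figure D2:**
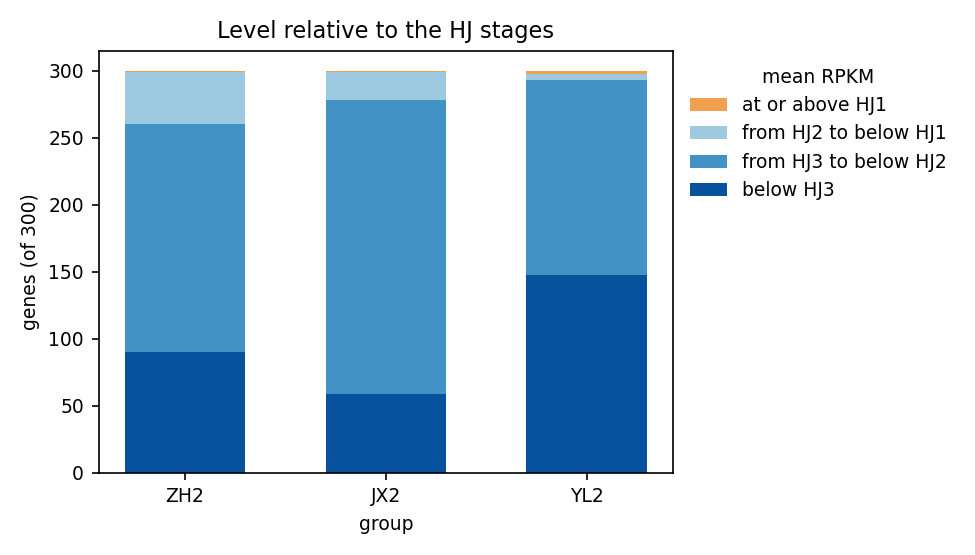
Number of the 300 genes whose mean RPKM in ZH2, JX2 or YL2 fell below HJ3, between HJ3 and HJ2, between HJ2 and HJ1, or at or above HJ1. The band below HJ3 holds 90 genes in ZH2, 59 in JX2 and 148 in YL2.

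Set against the 'Hu Jing Mi Lu' stages, most members stood lower in the other cultivars at stage 2 than in HJ2. The YL2 mean was below HJ3 for 148 members, between HJ3 and HJ2 for 145, between HJ2 and HJ1 for 5, and at or above HJ1 for 2. JX2 had 59 members below HJ3, 219 between HJ3 and HJ2, 21 between HJ2 and HJ1, and 1 at or above HJ1. ZH2 had 90 below HJ3, 170 between HJ3 and HJ2, 39 between HJ2 and HJ1, and 1 at or above HJ1. The HJ2 libraries took part in choosing the members, so these positions are a description.

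The median log2 difference of the members from HJ2 was -1.46 in ZH2, -1.23 in JX2 and -1.97 in YL2, against -0.23, -0.14 and -0.17 over all genes tested. Relative to HJ3 it was 0.41 in ZH2, 0.66 in JX2 and 0.00 in YL2, against -0.03, 0.02 and 0.00 over all genes tested. For YL2 minus HJ3 the quartiles of the members were -0.57 and 0.50. Means were under 1 RPKM for 108 members in YL2 and 100 in HJ3. HJ2 and HJ3 both took part in choosing the members, so these differences are a description. Members at least 1 lower than HJ2 on the log2 scale numbered 193 in ZH2 (background 12.8% of all genes tested), 177 in JX2 (9.21%) and 247 in YL2 (15%). Members at least 1 higher than HJ2 numbered 11 in ZH2 (6.5%), 4 in JX2 (4.28%) and 4 in YL2 (8.06%). For comparison, those of the 7303 genes falling at a single step by 1 or more, with a change under 0.5 in size at the other, were grouped after the data had been seen. Those falling only at the late step were also below HJ2 in the other cultivars (443 genes, medians -0.86 in ZH2, -0.73 in JX2 and -1.16 in YL2). Genes that fell only at the early step were close to HJ2 (396 genes, medians -0.06 in ZH2, -0.12 in JX2 and 0.10 in YL2). Both groups were chosen on HJ2 values, with HJ2 well above HJ3 in the late group and near HJ3 in the early group. Their distances from HJ2 thus follow in part from the choice, and nothing about the members is read from the contrast. Rescaling each library by its median ratio shifted the log2 differences upward, by a median over all genes of 0.17 for HJ2 minus HJ1, 0.18 for HJ3 minus HJ2, 0.22 for ZH2, 0.14 for JX2 and 0.16 for YL2, each minus HJ2. It left 219 of the 300 genes meeting the rule.

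Levels in the other cultivars ran down to the detection limit. The median member had 3.57 RPKM in ZH2, 4.77 RPKM in JX2 and 1.98 RPKM in YL2. Both libraries held 0 reads for 26 members in ZH2, 21 in JX2 and 33 in YL2, and 8 members had 0 reads in all 6 of these libraries. A mean of at least 100 RPKM was found for 17 members in ZH2, 16 in JX2 and 10 in YL2, against 96 in HJ1, 30 in HJ2 and 10 in HJ3.

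A few members went against this pattern. In ZH2 the gene ppa010081m had 120.3 and 106 RPKM, against 13.5 and 17.9 RPKM in HJ2. The gene ppa022366m had 31.0 and 31.7 RPKM in ZH2, against 6.37 and 4.29 RPKM in HJ2. In both, the ZH2 libraries lay above HJ2 and below HJ1, where ppa022366m had 94.3 and 77.4 RPKM. In JX2 the gene ppa012753m had 16.0 and 34.8 RPKM, against 6.13 and 3.80 RPKM in HJ2, a ratio of mean RPKM of 5.12 that was 3.22 without JX2 replicate 2. The gene ppa008874m had 99.5 and 95.1 RPKM in JX2, against 33.1 and 40.1 RPKM in HJ2, and lay within the range of its HJ1 values of 73.0 and 105 RPKM. In YL2 the gene ppa014020m had 634 and 686 RPKM, against 37.5 and 39.1 RPKM in HJ2, a ratio of mean RPKM of 17.2. It exceeded its HJ1 values of 141 and 157 RPKM as well. The short gene ppa016310m (258 bp) had 20.5 and 15.2 RPKM in YL2, against 4.76 and 3.61 RPKM in HJ2, on 23 reads in YL2 and 6 in HJ2.

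At the other end, several members abundant in HJ2 were far lower in another cultivar. The gene ppa013553m had 0 reads in ZH2 and in YL2, against 70.6 and 93.9 RPKM in HJ2, at least 42.2-fold lower in ZH2 and at least 41.5-fold lower in YL2. It kept 4.78 and 5.33 RPKM in JX2. The gene ppa018734m had 3 reads in the ZH2 libraries (0.159 and 0.276 RPKM), against 40.8 and 40.1 RPKM in HJ2, a depth-corrected ratio of HJ2 to ZH2 of 182 (95% counting interval 62.1 to 886). In JX2 the gene ppa010379m had 4.01 and 6.26 RPKM, against 277 and 256 RPKM in HJ2, and ppa009430m had 0 reads, against 27.4 and 19.1 RPKM in HJ2, at least 13.4-fold lower. The gene ppa011761m had 0 reads in YL2, against 26.5 and 31.9 RPKM in HJ2, at least 20.7-fold lower.

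The libraries of ZH2, JX2 and YL2 took no part in choosing the members, so differences among these 3 cultivars were tested. All 15217 genes with at least 1 RPKM in at least 2 libraries entered a single limma fit on log2(RPKM + 1), with Benjamini-Hochberg adjustment over all of them in each of the 3 comparisons. All 300 members were among them, since each was abundant in HJ1; 255 would have passed on the ZH2, JX2 and YL2 libraries alone. A gene is called here at an adjusted p under 0.05.

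JX2 carried more transcript of these genes than YL2. In JX2 120 members were called higher than in YL2 and 20 lower, that is 40% and 6.67% of the 300. Over all genes tested 12.5% were called higher and 11.5% lower, 23.9% in all. Of the 7303 genes abundant enough to qualify, 19.5% were called higher and 16.1% lower. The median log2 difference of the members was 0.69, against 0.00 over all genes tested, and its quartiles were 0.00 and 1.47. Over the 255 members that would have passed on the ZH2, JX2 and YL2 libraries alone, the median was 0.85. These held all 120 calls higher and 19 of the 20 lower. A fit of the 4 libraries alone called 66 members higher and 14 lower, against 5.59% and 5.99% of all genes tested in that fit. Of the calls over all libraries, 106 higher and 11 lower members differed by at least 1 on the log2 scale, as did 7.1% and 6.74% of all genes tested. The libraries of the 2 groups did not overlap for 164 members higher in JX2 (30.1% of all genes tested) and 37 lower (28%). That is 54.7% and 12.3% of the members, against 37.7% and 32.1% of the 7303 genes abundant enough to qualify.

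The leading genes of this comparison reached large differences in both directions. The gene ppa008874m had 99.5 and 95.1 RPKM in JX2, against 2.56 and 4.12 RPKM in YL2. Its log2 difference was 4.52 ± 0.270 (SE, limma adjusted p = 8.69e-07), with a ratio of mean RPKM of 29.1. The gene ppa008481m had 23.6 and 17.7 RPKM in JX2 and 0 reads in both YL2 libraries, at least 19.4-fold higher (log2 difference 4.42 ± 0.215, limma adjusted p = 2.43e-07). It stood at 42.1 and 34.1 RPKM in ZH2, so that YL2 alone of these cultivars lacked reads of it. In the other direction, ppa014020m had 31.1 and 16.0 RPKM in JX2, against 634 and 686 RPKM in YL2 (log2 difference -4.82 ± 0.279, limma adjusted p = 7.06e-07). The gene ppa010379m had 4.01 and 6.26 RPKM in JX2, against 92.2 and 88.7 RPKM in YL2 (log2 difference -3.92 ± 0.255, limma adjusted p = 1.51e-06). For ppa010379m it was JX2 that was low, since ZH2 had 55.0 and 64.2 RPKM and HJ3 had 62.7 and 32.9 RPKM.

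**Figure D3:**
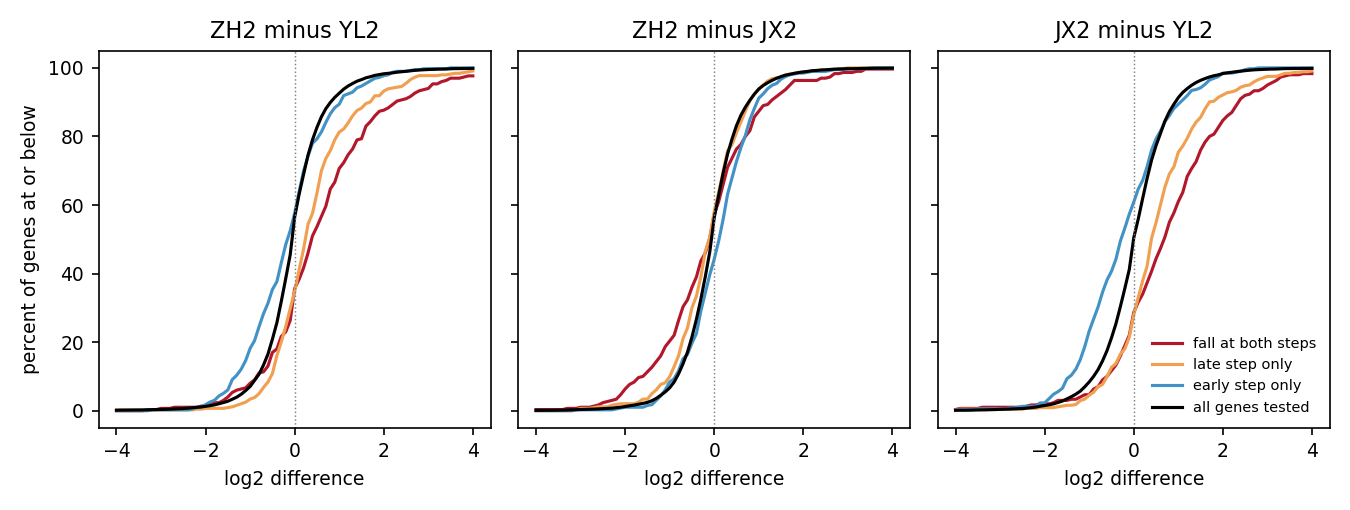
Cumulative share of genes by log2 difference for ZH2 minus YL2, ZH2 minus JX2 and JX2 minus YL2, for the genes falling at both HJ steps, at the late step only, at the early step only, and all genes tested. In the JX2 minus YL2 panel the curve of the genes falling at both steps has the highest median, 0.69, and that of the early step only the lowest, -0.28.

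ZH2, the hard melting cultivar with slight aroma, also carried more of these transcripts than YL2. In ZH2 94 members were called higher than in YL2 and 24 lower, or 31.3% and 8% of the 300, against 9.1% and 9.47% of all genes tested (18.6% in all). Of the 7303 genes abundant enough to qualify, 13.8% were called higher and 13.3% lower. The number of members called lower was 14 without YL2 replicate 2, where 5.58% of all genes tested were called lower. A fit of the 4 libraries alone called 63 members higher and 14 lower, against 6.31% and 7.15% of all genes tested. The median log2 difference was 0.38, against -0.04 over all genes tested. Over the 255 members that would have passed on the ZH2, JX2 and YL2 libraries alone, it was 0.59. These held all 94 calls higher and 23 of the 24 lower. The libraries did not overlap for 142 members higher in ZH2 (25.3% of all genes tested) and 54 lower (32.4%). That is 47.3% and 18% of the members, against 31.2% and 36.4% of the 7303 genes abundant enough to qualify.

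The gene ppa010081m, which had fallen to a single read in each HJ3 library, led this comparison. It had 120.3 and 106 RPKM in ZH2, against 0.479 and 0.462 RPKM in YL2, which is 1 read in each YL2 library. The depth-corrected ratio was 240.1 (95% counting interval 66.1 to 1988), with a log2 difference of 6.28 ± 0.198 (SE, limma adjusted p = 9.35e-09). The gene ppa008420m had 147 and 131 RPKM in ZH2, against 2.56 and 0.928 RPKM in YL2 (log2 difference 5.73 ± 0.265, limma adjusted p = 1.51e-07). Its ratio of mean RPKM was 79.5, on 8 and 3 reads in the YL2 libraries. It was 149 without YL2 replicate 1 and 54.1 without YL2 replicate 2. Among members lower in ZH2, ppa014020m had 49.5 and 85.1 RPKM in ZH2, against 634 and 686 RPKM in YL2 (log2 difference -3.32 ± 0.279, limma adjusted p = 1.08e-05). The ZH2 and YL2 libraries were far apart for this gene, and both YL2 values exceeded every HJ value. The gene ppa016310m had 0 and 4.02 RPKM in ZH2, on 3 reads, against 20.5 and 15.2 RPKM in YL2 (log2 difference -3.06 ± 0.575, limma adjusted p = 0.00320). Its depth-corrected ratio of YL2 to ZH2 was 8.25 (95% counting interval 2.49 to 42.9), or 4.42 without ZH2 replicate 1, and at least 3.84 without ZH2 replicate 2. The call was lost in a fit of the 4 libraries alone, where the limma adjusted p was 0.148; over all alternatives it ran from 0.000109 to 0.148.

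Between ZH2 and JX2 the members differed often, but in both directions. In ZH2 40 members were called higher than in JX2 and 62 lower, or 13.3% and 20.7% of the 300, against 7.64% and 8.92% of all genes tested (16.6% in all). Among the 7303 genes abundant enough to qualify the shares were 10.9% higher and 13.4% lower. The members called higher were thus near the share of comparable genes. The number of members called lower was 38 without ZH2 replicate 1, where 4.66% of all genes tested were called lower. A fit of the 4 libraries alone called 19 members in each direction, against 3.33% of all genes tested higher and 3.32% lower. The median log2 difference was -0.11, against -0.04 over all genes tested, with quartiles of -0.84 and 0.44. Over the 255 members that would have passed on the ZH2, JX2 and YL2 libraries alone, the median was -0.14. These held 39 of the 40 calls higher and all 62 lower. The libraries did not overlap for 78 members higher in ZH2 (24.2% of all genes tested) and 112 lower (31.1%). That is 26% and 37.3% of the members, against 28% and 37.9% of the 7303 genes abundant enough to qualify. By this measure the members were near the shares of comparable genes in both directions.

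The gene ppa012567m had 14.3 and 18.3 RPKM in ZH2 and 0 reads in JX2, at least 4.86-fold higher (log2 difference 4.11 ± 0.287 SE, limma adjusted p = 4.74e-06). No YL2 or HJ3 library held a read of it. The gene ppa010081m was higher in ZH2 here too, against 9.01 and 11.6 RPKM in JX2 (log2 difference 3.35 ± 0.198, limma adjusted p = 1.59e-06). It thus followed the order ZH2, JX2, YL2 with no overlap between libraries. The gene ppa018734m had 0.159 and 0.276 RPKM in ZH2, against 21.1 and 17.3 RPKM in JX2 (log2 difference -4.05 ± 0.234, limma adjusted p = 1.44e-06). Its depth-corrected ratio of JX2 to ZH2 was 87.0 (95% counting interval 29.2 to 426). The gene ppa009865m had 4.23 and 10.996 RPKM in ZH2, against 84.1 and 75.4 RPKM in JX2 (log2 difference -3.35 ± 0.300, limma adjusted p = 2.79e-05). Its ratio of mean RPKM of JX2 to ZH2 was 10.5, or 18.9 without ZH2 replicate 2 and 7.25 without ZH2 replicate 1. In a fit of the 4 libraries alone its limma adjusted p was 0.0619, and over all alternatives it ran from 3.70e-09 to 0.0619.

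**Figure D4:**
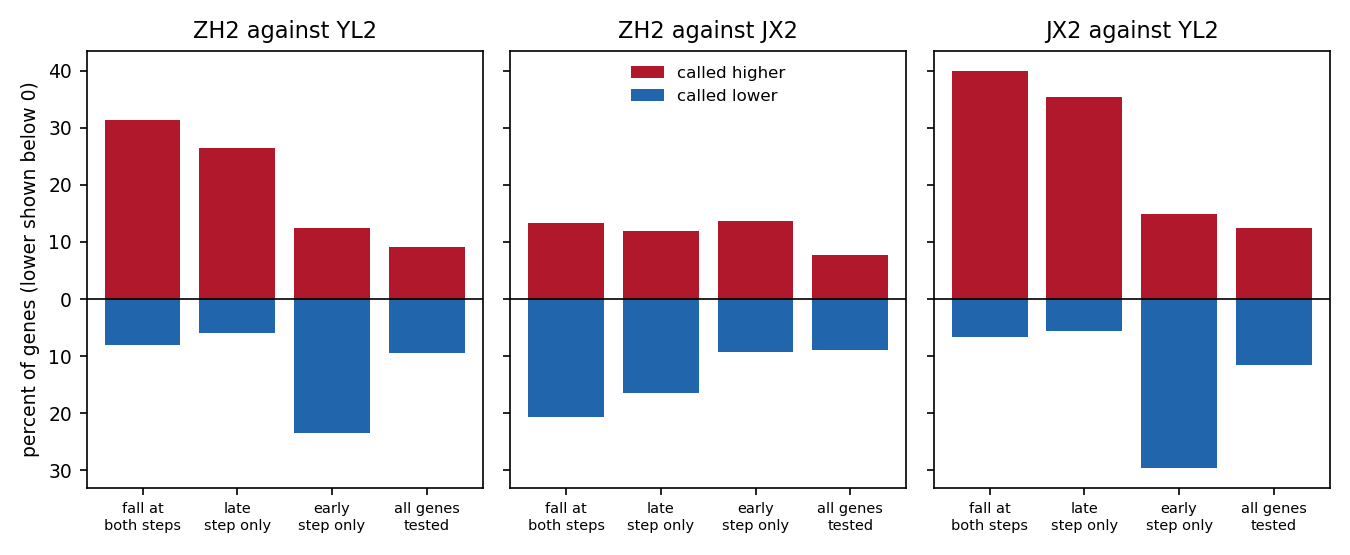
Percent of genes called higher (red, upwards) and lower (blue, downwards) at a limma adjusted p under 0.05 in the 3 comparisons of cultivars, for 4 sets of genes. For JX2 against YL2, 40% of the genes falling at both HJ steps were called higher, against 14.9% of those falling at the early step only and 12.5% of all genes tested.

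The genes falling at a single HJ step were split in their calls. The 443 genes falling only at the late step leaned the same way as the members, with 35.4% called higher in JX2 than in YL2 and 5.64% lower. The 396 genes falling only at the early step leaned the other way, with 14.9% called higher and 29.5% lower. For ZH2 against YL2, late fallers were called higher in 26.4% and lower in 5.87%, and early fallers in 12.4% and 23.5%. The difference between these sets was not tested. Within the members, those with the larger late step had 72 calls higher and 5 lower in JX2 against YL2, of 156. Those with the larger early step had 48 higher and 15 lower, of 144. Over all genes tested 12.5% were called higher in this comparison and 11.5% lower. For ZH2 against YL2 the numbers higher and lower were 53 and 12 of 156 with the larger late step, and 41 and 12 of 144 with the larger early step. Over all genes tested 9.1% were called higher there and 9.47% lower. The split rests on HJ values that the rule used, and the difference between its parts was not tested.

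Calls were more frequent among abundant members, as among abundant genes in general. Of the 96 members with at least 100 RPKM in HJ1, 61 (63.5%) were called higher in JX2 than in YL2 and 11 (11.5%) lower, against 32.1% and 26.3% of the 1303 genes able to qualify at that level. Of the 204 less abundant members, 59 (28.9%) were called higher and 9 (4.41%) lower, against 16.7% and 13.8% of the 6000 other genes able to qualify. The median log2 difference was 1.02 in the abundant members and 0.54 in the others, on a scale that understates the change of low genes.

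The order of the 3 cultivars can also be read member by member. Of 277 members whose mean RPKM differed among all 3, YL2 was the lowest for 163 (58.8%), ZH2 for 66 (23.8%) and JX2 for 48 (17.3%). Over 14388 genes tested, YL2 was the lowest for 32.7%, ZH2 for 36.1% and JX2 for 31.2%. JX2 was the highest for 130 members (46.9%), ZH2 for 103 (37.2%) and YL2 for 44 (15.9%). Over all genes tested JX2 was the highest for 38.9%, ZH2 for 24.97% and YL2 for 36.2%. These are orders of means, and 2 libraries a group do not separate neighbours in each gene.

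**Figure D5:**
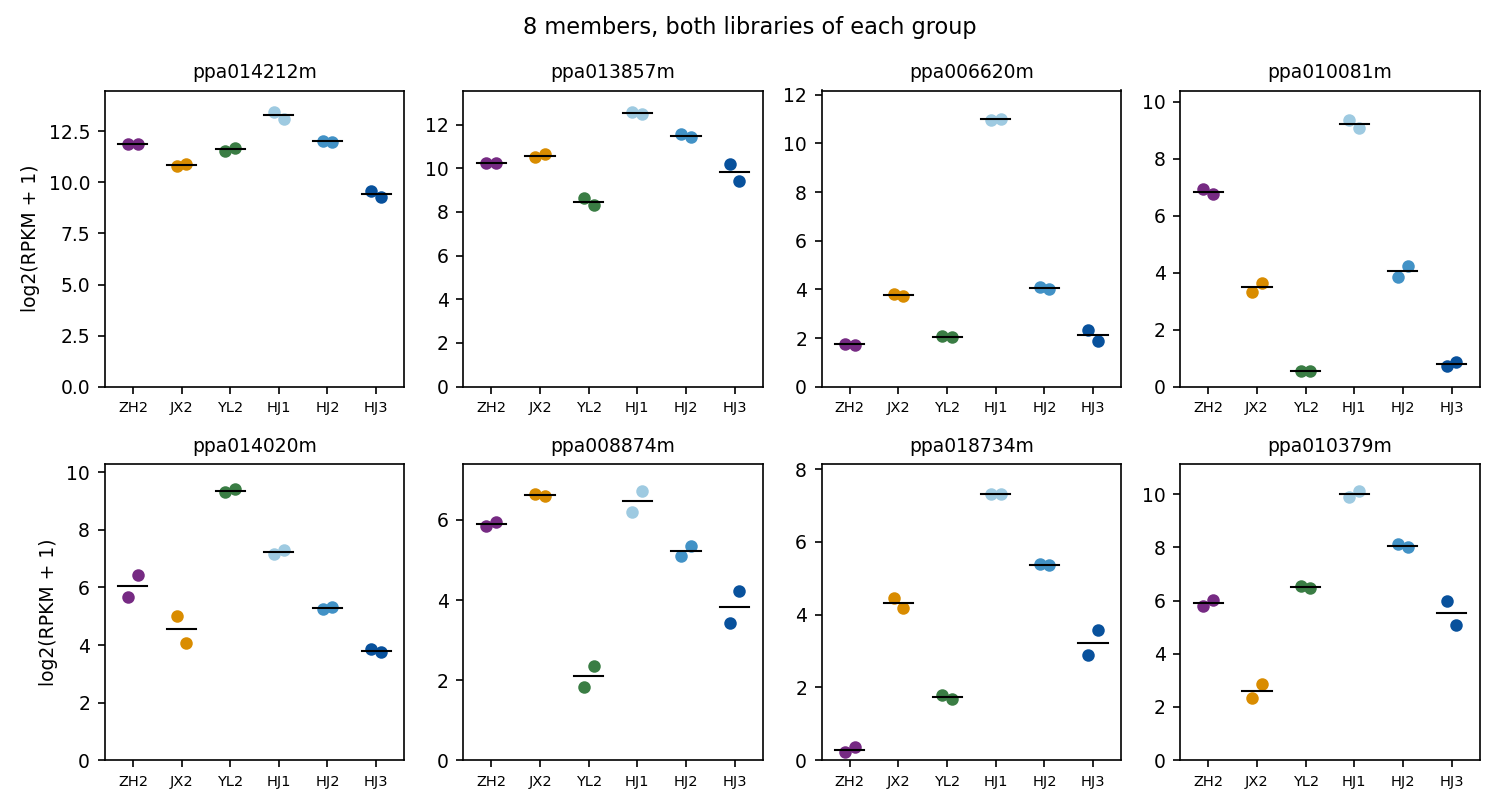
Levels of 8 members in both libraries of each group, as log2(RPKM + 1), with a line at the mean of the log2 values. The genes ppa010081m, ppa008874m and ppa018734m differ widely among ZH2, JX2 and YL2, and ppa014020m is higher in YL2 than at any HJ stage.

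Gene length worked back from the values had a median of 960 bp in the members (quartiles 629 and 1421 bp), against 1299 bp (851 and 1866 bp) over all genes tested and 1296 bp in the 7303 genes able to qualify. Lengths under 600 bp were found for 61 members (20.3%), against 11.1% of all genes tested. Genes falling only at the late step were short as well, with a median of 873 bp, and those falling only at the early step had a median of 1083 bp. A short gene has fewer reads at the same RPKM, so its values are less precise, and the part of length in these results was not tested.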

How the data were processed

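RNA-seq of peach mesocarp was deposited as RPKM per gene and library in 12 separate tables, per the file headers. The submitters' processing notes list DESeq 1.10.1, HTSeq 0.5.3, TopHat 1.4.0 and Bowtie 0.12.8, with no role stated. For the build, the annotation, strand and the treatment of shared reads, the sources used here give nothing, so values of genes with near-identical copies or overlapping neighbours are uncertain. A gene that takes a larger part of a library lowers the RPKM of every other.

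Whole reads, depths and gene lengths were recovered from the steps between RPKM values (pandas 2.3.3, numpy 2.4.6, Python 3.11.15). This covered the 17316 genes with a value above 0 in 2 or more libraries, where 100% of values came out whole to 0.001 reads. Intervals and floors cover counting error only, with 3 reads as the level that 0 reads allows.

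Cultivars were compared on log2(RPKM + 1) with limma 3.58.1 (R 4.3.3), for genes with at least 1 RPKM in at least 2 libraries, with 6 group means in a single fit (6 residual degrees of freedom, empirical Bayes with trend). Groups follow the sample titles. Scripts were checked on simulated data. Named members were the 2 highest in HJ1, the 2 with the deepest drop from HJ1 to HJ3, and up to 2 in each direction for each pair of cultivars (called, libraries not overlapping, higher mean at least 10 RPKM) and for each cultivar against HJ2 (higher mean at least 10 RPKM), by log2 difference. The members, the rule and the tests were chosen with earlier results of these data known. The planned lists by product name and the marker lists could not be used without gene names. Alternatives were a pseudocount of 0.1, no filter, 2 rescalings, limma voom on whole reads, a replicate block, fits of 2 groups, left-out libraries and, for the rule, a step of -1.5.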

Additional observations from a re-analysis of the deposited data

How the results depend on the processing

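The set itself held 355 genes at a pseudocount of 0.1, 219 after rescaling by median ratios, 227 after rescaling without the 10 most abundant genes, and 144 with a step of -1.5. Leaving out an HJ library gave 302 to 329 genes, of which 265 to 283 were among the 300. Calls fell most in fits of the 2 groups alone (4 libraries), to 77 for ZH2 against YL2, 38 for ZH2 against JX2 and 80 for JX2 against YL2, from 118, 102 and 140. Such a fit has fewer residual degrees of freedom. Calls over all genes tested fell in these fits as well. For ZH2 against YL2 they were 6.31% higher and 7.15% lower, from 9.1% and 9.47%. For ZH2 against JX2 they were 3.33% and 3.32%, from 7.64% and 8.92%. For JX2 against YL2 they were 5.59% and 5.99%, from 12.5% and 11.5%. Among the members, the fit of ZH2 against JX2 gave 19 calls in each direction. Leaving out a library gave 93 to 104, 70 to 89 and 111 to 121 calls in the same order, where the lone library of a group is assumed to vary like the others. Limma voom gave 123, 108 and 137. Among the 219 genes chosen on rescaled values, which was tried only once the data were known, 68 were higher and 20 lower in ZH2 than in YL2, 36 higher and 52 lower in ZH2 than in JX2, and 91 higher and 19 lower in JX2 than in YL2. With the replicate number as a block the calls were 115, 99 and 139. No share over all genes tested stands here beside the counts from left-out libraries, voom, the block or the 219 genes. These counts therefore show only how the number of calls moved with the processing. Same-numbered libraries did not deviate together (r between -0.0667 and 0.0499 over 15 pairs of groups, with 0 over 0.1). Whether they shared a source is not given in the labels, and a small shared effect would not be seen this way.

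The median log2 difference of the members from HJ2 kept its sign under every alternative run. The rule sets HJ2 well above HJ3, so this sign follows in part from the choice of members and is a description. For ZH2, JX2 and YL2 it was -1.84, -1.42 and -2.60 at a pseudocount of 0.1, -1.28, -1.09 and -1.82 after rescaling by median ratios, and -1.32, -1.07 and -1.86 without the 10 most abundant genes. Leaving out a library gave -1.53 to -1.39 for ZH2, -1.28 to -1.20 for JX2 and -2.01 to -1.96 for YL2. At these depths, members listed at 0 may stand at up to about 3 reads, and their order among groups is not resolved.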
